A study of Mus musculus with 30 samples.

Results

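Wnt and planar cell polarity genes were followed in the hippocampus of adult C57 BL/6J mice, as 45 of the 17477 genes in the deposited count table. All 45 were found in the table by symbol. They are 8 Wnt ligands, 9 Frizzled receptors, 5 other receptors, 3 secreted inhibitors, 2 receptor ubiquitin ligases, 3 Dishevelled genes, 6 genes of the destruction complex and beta-catenin, 2 nuclear factors and 7 core planar polarity genes. The set was chosen because Celsr1 and Apc are lower after isolation, so the values of social isolation (SI) against group housing (GH) are a description of genes selected on that contrast. No p-value is given for them there, and counts of calls describe the fits only. RNA-seq of poly(A) RNA was made from 30 mice, 1 library each. The females were 8 SI and 7 GH mice, the males 7 SI and 8 GH mice. The SI mice were kept alone from weaning until adulthood, whereas the GH mice, the controls, shared cages over the same time. No mouse carried a genetic alteration or received a drug, and all were killed with CO2.

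Wnt ligands are secreted proteins that bind Frizzled receptors together with a co-receptor. In the canonical branch, binding at Lrp5 or Lrp6 recruits Dishevelled and stops a destruction complex built on Apc, Axin and Gsk3b from marking beta-catenin for degradation, so that beta-catenin enters the nucleus and acts with factors such as Lef1. In the planar cell polarity branch, Celsr cadherins, Vangl and Prickle proteins align cells within a sheet and guide axons. In the hippocampus the pathway is known for its roles in formation of the dentate gyrus, adult neurogenesis and synapse assembly.

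Total counts per library ranged from 18809307 to 100844898. SI males 25, 33 and 39 stood apart from the rest. The slope of log2 expression on log2 transcript length, relative to the mean of all libraries, was between -0.48 and -0.37 in these 3 and between -0.13 and 0.18 in the other 27, so that long transcripts had low values in them. Every hippocampal neuron marker had counts. Choroid plexus markers summed to 169 to 364 CPM (counts scaled to library size) in GH males 1, 2 and 3 and to 198 and 168 in SI males 7 and 8, against 1304 or more in each of the other mice. For males the values without SI males 25, 33 and 39 are therefore given beside those that differ with them.

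Members were compared with each other per kilobase of transcript, as normalized counts. Ctnnb1, which encodes beta-catenin, had the highest level of the 45, with group means from 5017 per kb in SI males to 6096 per kb in GH females. Dkk3, a secreted protein of the Dickkopf family, came next, at 4635 to 5242 per kb. Dvl1 followed at 1236 to 1465 per kb, overlapping in its group means with Prickle2 at 888 to 1327 per kb. Apc was the fifth by the mean of the 4 groups, at 624 to 1209 per kb, although in SI males it lay below Celsr2, Prickle1, Gsk3b, Wnt7b and Apc2, so its place in the order is not resolved. Among the ligands Wnt7b stood highest, at 661 to 748 per kb, and among the Frizzled receptors Fzd3, at 441 to 584 per kb. Celsr2 was by far the most abundant of its family, with 802 to 886 per kb, whereas Celsr1 had 36.2 to 70.1 per kb. At the low end stood Fzd5 with 10.6 to 14.2 per kb and Ror2, a receptor tyrosine kinase for Wnt5a, with 12.3 to 15.3 per kb. The group means of these 2 genes overlapped and their order is not resolved.

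**Figure D1:**
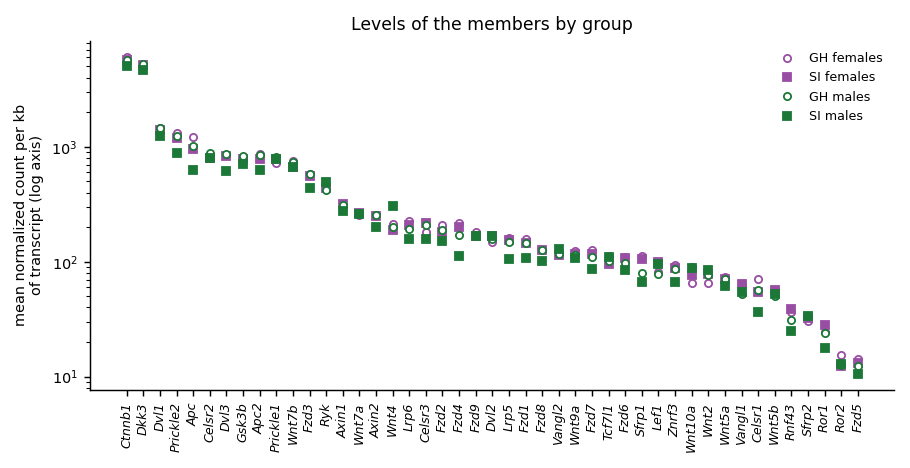
Mean normalized count per kb of transcript on a log axis for each of the 45 genes, ordered by the mean of the 4 groups, with circles for GH, squares for SI, purple for females and green for males. Ctnnb1 and Dkk3, at 4635 per kb or more in every group, lie above the other 43 genes, which reach 1465 per kb at most (Dvl1 in GH females).

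Celsr1 (ENSMUSG00000016028), an atypical cadherin of the cell membrane that sets planar polarity, was lower in SI females. Its normalized count was 417 at the lowest, 624 at the median and 737 at the highest in the 8 SI females, against 572, 803 and 929.8 in the 7 GH females. The groups overlapped, although 3 of the 8 SI females lay below every GH female. The Log2FC was -0.38 with a standard error of 0.058. In SI males the count ran from 179 through a median of 399 to 749, and in GH males from 515 through 602 to 792. Of the 7 SI males, 5 lay below every GH male. The Log2FC in males was -0.33 with a standard error of 0.123. SI males 25, 33 and 39 had 181, 179 and 231 and were the lowest 3 of all males. Without them the Log2FC was -0.14 with a standard error of 0.123.

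Apc (ENSMUSG00000005871), the scaffold of the destruction complex and a protein that also binds microtubules, was lower in SI mice of both sexes by the choice of the set. In SI females it ranged from 9717 through a median of 11816 to 13762, and in GH females from 12061 through 15749.5 to 17031. The groups overlapped, and 4 of the 8 SI females lay below every GH female. The Log2FC was -0.28 with a standard error of 0.061. In SI males Apc ranged from 4001 through 5993 to 13449, and in GH males from 10805 through 11666 to 15036. Here 5 of 7 SI males lay below every GH male. SI males 25, 33, 39 and 38 had 4001, 4307, 4672 and 5993, while SI males 7, 8 and 27 had 10007, 13449 and 11463. The Log2FC in males was -0.48 with a standard error of 0.142, and -0.11 with a standard error of 0.050 without SI males 25, 33 and 39.

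**Figure D2:**
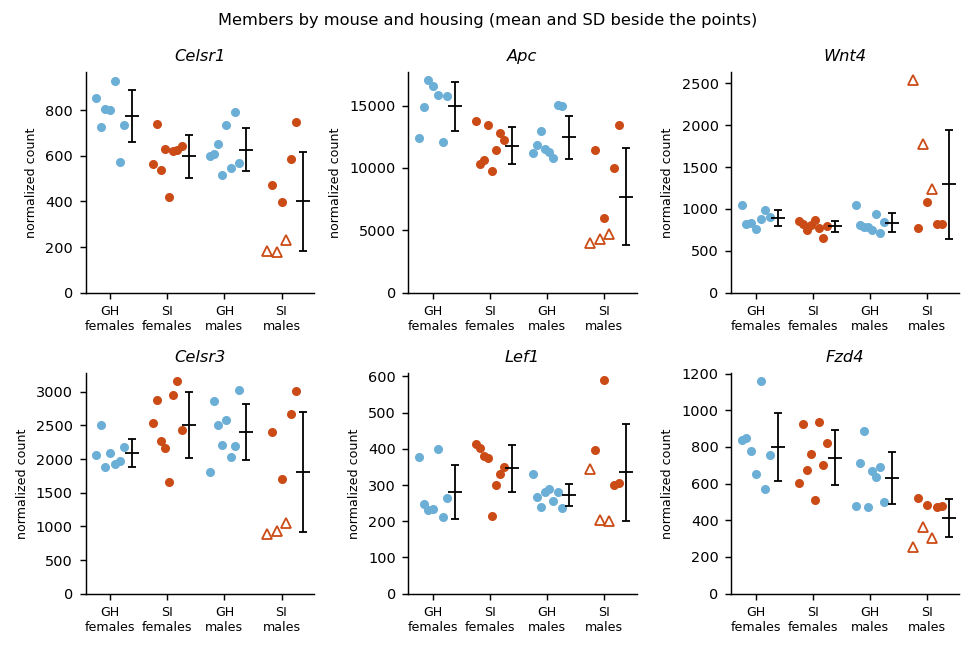
Normalized counts (linear axis from 0) of 6 genes in each mouse, with GH in blue and SI in orange, open triangles for SI males 25, 33 and 39, and the mean with its SD to the right of each group. Celsr1 and Apc are lower in SI groups, the triangles are the lowest males for Celsr1, Apc, Celsr3 and Fzd4, and for Wnt4 they are the highest.

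Over all 45 genes, 33 had a negative and 12 a positive Log2FC in females, with a median of -0.05 against 0.01 over all 16026 genes tested. With edgeR, 3 of the 45 (Apc, Celsr1 and Wnt4) were lower DEGs (adjusted p below 0.05) in SI females, and 2.93% of all genes tested were. None was a higher DEG with edgeR, and 0.961% of all genes were. At an unadjusted p below 0.05, 11 members were lower and 5 higher, where all genes gave 11.0% and 9.29%. DESeq2 called 4 members lower (5.31% of all genes), adding Ctnnb1, and Celsr3 and Prickle1 higher (2.56%). Limma-voom called Apc, Celsr1 and Wnt7b lower (3.32%) and Lef1 higher (1.91%), and edgeR without surrogate variables called 0 members and 0 of all genes. Since the set was selected on this contrast, nothing is read from these counts about the set.

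In males 30 of 45 had a negative Log2FC, with a median of -0.05 against -0.00 over all 15833 genes. No member was a DEG in males with edgeR, DESeq2 or limma-voom, and edgeR called 0.0% of all genes. Without SI male 27 it called 6 members lower (Apc, Apc2, Celsr1, Dvl3, Fzd3 and Prickle2), when 9.16% of all genes were, and without SI male 38 it called Apc2 lower, when 0.695% of all genes were. At an unadjusted p below 0.05, 7 members were lower (7.38% of all genes) and 2 higher (5.63%). Leaving out SI males 25, 33 and 39 left 30 of 45 negative, with 2 lower (3.37% of all genes) and 1 higher (2.91%) at that threshold. Both sexes gave a negative Log2FC for 22 members and a positive one for 4, while 11 were negative in females only and 8 in males only.

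Summed markers of other cell types are given beside these values, and their ranges overlapped or touched between the housing groups. The sum of 8 astrocyte markers was 4464 to 6340 CPM (median 5451) in SI females and 5421 to 7326 CPM (median 6764) in GH females. Oligodendrocyte markers had medians of 7533 and 9034 CPM in these groups. Endothelial markers were at 225 to 269.9 CPM in SI females and 196 to 225 CPM in GH females. In males astrocyte markers were at 3534 to 6008 CPM under SI and 4895 to 6748 CPM under GH. Microglia markers were at 348 to 647 and 357 to 442 CPM, and endothelial markers at 216 to 339 and 207 to 275 CPM. SI males 25, 33 and 39 had the highest microglia sums (647, 616 and 550) and endothelial sums (339, 297 and 289). In SI males 7, 8, 27 and 38 astrocyte markers were at 4093 to 6008 CPM, microglia markers at 348 to 410 and endothelial markers at 216 to 269. None of the 8 markers of each of these lists was at 0 in any library, and their part in the Log2FC of members was not tested.

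**Figure D3:**
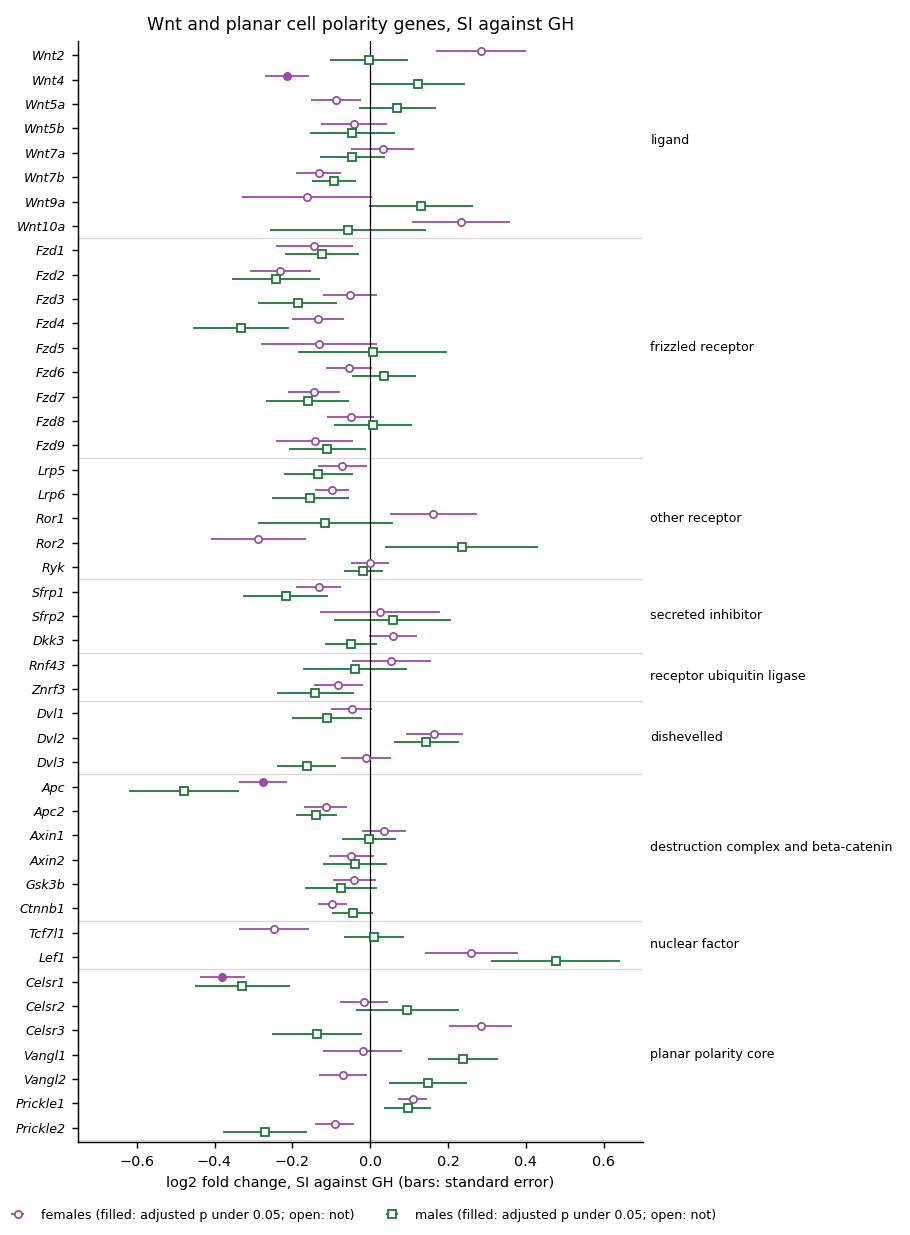
Log2 fold change of SI against GH with its standard error for each of the 45 genes, grouped by role, with purple circles for females, green squares for males and filled symbols for an adjusted p below 0.05. The filled symbols are Wnt4, Apc and Celsr1 in females, and all 9 Frizzled receptors lie left of 0 in females.

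Wnt4 (ENSMUSG00000036856) was the single ligand called by edgeR in females. Its call held in 4 of 15 fits that each left out 1 female, that of Apc in 7 and that of Celsr1 in 15. The Wnt4 count ranged from 659 through a median of 803 to 871 in SI females and from 758 through 884 to 1048 in GH females. Of the SI females, 2 of 8 lay below every GH female. These values are for Wnt4. The Log2FC was -0.21 with a standard error of 0.056. In males the groups stood the other way in their normalized counts. SI males ranged from 776 through 1086 to 2541 and GH males from 708 through 801 to 1051. SI males 25, 33 and 39 were the highest, at 2541, 1773 and 1243. The fitted Log2FC in males was 0.12 with a standard error of 0.122, and -0.11 with a standard error of 0.089 without those mice.

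The promoters of Wnt4 and of Axin2, a destruction complex gene that is itself a well-known transcriptional target of beta-catenin, are shown because the first belongs to the only ligand called by edgeR and the second to the pathway's feedback reporter. Both are RefSeq windows on GRCm38.p6 from 250 bases before to 50 after the start, on the plus strand, 5′ to 3′, with capitals from the start on. Wnt4 lies at chr4:137277385-137277684 and Axin2 at chr11:108920099-108920398.
Wnt4: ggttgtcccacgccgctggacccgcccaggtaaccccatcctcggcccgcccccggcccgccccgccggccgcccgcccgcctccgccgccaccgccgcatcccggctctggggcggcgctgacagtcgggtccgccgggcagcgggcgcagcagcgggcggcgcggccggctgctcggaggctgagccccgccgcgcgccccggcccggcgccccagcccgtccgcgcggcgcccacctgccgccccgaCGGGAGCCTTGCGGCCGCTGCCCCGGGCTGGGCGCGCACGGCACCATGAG
Axin2: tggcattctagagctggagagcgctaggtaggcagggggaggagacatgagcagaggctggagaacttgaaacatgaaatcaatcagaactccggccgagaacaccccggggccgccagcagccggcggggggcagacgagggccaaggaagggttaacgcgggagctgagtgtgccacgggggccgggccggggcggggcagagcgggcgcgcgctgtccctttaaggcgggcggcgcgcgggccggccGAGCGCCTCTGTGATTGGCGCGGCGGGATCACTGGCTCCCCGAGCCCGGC

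The letters CTTTGAT, a form of the site bound by factors of the TCF and LEF family, were searched on both strands. Of the 45 genes, 29 had 43 windows in the RefSeq table. The letters were found in 2 of the 43 windows (4.65%), against 3.73% of all 32851 windows of 300.0 bases, and in neither window printed above. The 2 stretches are shown with the match in capitals, on the minus strand of GRCm38.p6, Prickle2 at chr6:92567514-92567540 and Wnt5b at chr6:119449441-119449467.
Prickle2: catatgcttgCTTTGATgtcataaagg
Wnt5b: gtaagtctctCTTTGATctgctccctg

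The other ligands varied in sign. Wnt2 had the largest positive value in females, a Log2FC of 0.28 with a standard error of 0.115. Its counts were 134, 178 and 212 (lowest, median and highest) in SI females and 133, 143 and 166 in GH females, and 4 of 8 SI females lay above every GH female. In males Wnt2 had a Log2FC of -0.00 with a standard error of 0.100. Wnt7b, the most abundant ligand per kb, had a Log2FC of -0.13 in females and -0.09 in males. Wnt9a had the largest value among ligands in males, 0.13 with a standard error of 0.134, with counts of 284, 329 and 494 in SI males against 259, 398 and 480.3 in GH males. The male groups of Wnt9a overlapped across nearly all of their range. In females Wnt9a had -0.16 with a standard error of 0.166, and -0.0005 without SI female 52. Of the 8 SI females, 4 lay below every GH female for Wnt9a and 4 above. Wnt5a, a ligand of the polarity branch, had -0.09 in females and 0.07 in males, and the related Wnt5b -0.04 and -0.05. Wnt7a had 0.03 and -0.05, and Wnt10a 0.23 and -0.06, with -0.36 in males without SI males 25, 33 and 39. Without these mice Wnt5a had 0.14, Wnt5b -0.13, Wnt7a -0.16, Wnt7b -0.08 and Wnt9a 0.07 in males.

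All 9 Frizzled receptors, the transmembrane receptors that bind the ligands, had a negative Log2FC in females, between -0.23 and -0.05 with a median of -0.13. Of all genes tested, 47.2% were negative in females. Without GH female 46 the Fzd8 value was 0.0073, and under another alternative that of Fzd5 was 0.0048. None of the 9 receptors was a DEG. Fzd2 had the largest difference, -0.23 with a standard error of 0.079. Its counts were 602, 629 and 801 in SI females and 585, 764 and 875 in GH females, so the ranges overlapped but the medians were apart. In females Fzd1 had -0.14, Fzd3 -0.05, Fzd4 -0.13, Fzd5 -0.13, Fzd6 -0.05, Fzd7 -0.15, Fzd8 -0.05 and Fzd9 -0.14. In males 6 of the 9 were negative, and 7 without SI males 25, 33 and 39. Fzd2 had -0.24 in males, Fzd3 -0.19, Fzd7 -0.16, Fzd1 -0.12 and Fzd9 -0.11, while Fzd5, Fzd6 and Fzd8 lay between 0.01 and 0.03. Without those mice Fzd2 had -0.30, Fzd3 -0.04, Fzd7 -0.17, Fzd1 -0.05 and Fzd9 -0.24, while Fzd5 had -0.05, Fzd6 0.10 and Fzd8 0.04. Fzd4, which is known as the receptor of norrin in vessels of the retina and brain, had a Log2FC of -0.33 with a standard error of 0.124 in males. Its counts were 253, 472 and 524 in SI males and 472, 651 and 889 in GH males, with SI males 25, 33 and 39 as the lowest 3. Without these mice the value was -0.18 with a standard error of 0.106.

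Of the other receptors, Lrp6 had a Log2FC of -0.10 in females and -0.15 in males, and Lrp5 -0.07 and -0.13. In males they had -0.02 and -0.03 without SI males 25, 33 and 39. These are the co-receptors of the canonical branch. Ror2 had -0.29 with a standard error of 0.122 in females and 0.23 with a standard error of 0.196 in males, at counts of 37.1, 49.1 and 60.0 in SI females against 42.6, 61.2 and 78.2 in GH females. Ror2 rested on as few as 17 estimated counts in a library, the fewest of any member. Its counts in males were 35.4, 46.2 and 81.0 under SI and 29.95, 49.4 and 68.7 under GH, and its male Log2FC was -0.07 without SI males 25, 33 and 39. Ror1, the related receptor, had 0.16 in females and -0.12 in males, and 0.06 in males without those mice. Ryk, a Wnt receptor of the kinase-dead class, had -0.00 in females and -0.02 in males, and 0.03 in males without those mice.

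Among inhibitors and receptor ubiquitin ligases the largest differences were those of Sfrp1 and Znrf3. Sfrp1, a secreted protein that binds Wnt ligands, had a Log2FC of -0.13 with a standard error of 0.058 in females and -0.22 with a standard error of 0.110 in males. Its counts were 397, 446 and 547 in SI females and 374, 446 and 672 in GH females. Znrf3, which removes Frizzled receptors from the membrane, had -0.08 in females and -0.14 in males. Its counts were 469, 549 and 662 in SI females against 466, 571 and 759 in GH females, and 248, 429.7 and 580.3 in SI males against 442, 529 and 649 in GH males. Without SI males 25, 33 and 39 the male values were -0.20 for Sfrp1 and -0.04 for Znrf3. Sfrp2 had 0.02 in females and 0.06 in males, Dkk3 0.06 and -0.05, and Rnf43, the partner of Znrf3, 0.05 and -0.04. Without those mice the male values were 0.04 for Sfrp2, -0.11 for Dkk3 and -0.02 for Rnf43.

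The 3 Dishevelled genes, which relay the signal in both branches, differed in sign. Dvl2 had a Log2FC of 0.16 with a standard error of 0.074 in females, where its counts were 712, 858 and 977 under SI and 622, 765 and 826 under GH, and 5 of 8 SI females lay above every GH female. In males Dvl2 had 0.14 with a standard error of 0.084, and 0.05 without SI males 25, 33 and 39. Dvl3 had -0.01 in females and -0.16 with a standard error of 0.075 in males, and -0.07 in males without SI males 25, 33 and 39. The Dvl3 counts of SI males were 745, 1817 and 2406 and those of GH males 1918, 2129 and 2534. Dvl1 had -0.05 in females and -0.11 in males, and -0.07 in males without SI males 25, 33 and 39.

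Among the genes of the destruction complex and beta-catenin, 5 of 6 were negative in females and 6 of 6 in males. Without SI males 25, 33 and 39 it was 4 of 6 in males, where Axin2 had 0.01 and Ctnnb1 0.02. Ctnnb1 had a Log2FC of -0.10 with a standard error of 0.036 in females, with counts of 19155, 20726 and 21677 under SI and 20753, 22545 and 22950.2 under GH, and 5 of 8 SI females below every GH female. Apc2, the paralogue of Apc that is mostly expressed in the nervous system, had -0.11 in females and -0.14 with a standard error of 0.052 in males. Its male value was -0.08 without SI males 25, 33 and 39. Axin2 had -0.05 and -0.04, Axin1 0.04 and -0.00, and Gsk3b, the kinase of the complex, -0.04 and -0.08 in females and males. Without those mice Axin1 had -0.08 and Gsk3b -0.06 in males.

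Of the nuclear factors, Lef1 had a positive Log2FC in both sexes, 0.26 with a standard error of 0.119 in females and 0.48 with a standard error of 0.166 in males. Lef1 had counts of 215, 362 and 415 in SI females, 213, 246 and 399.9 in GH females, 200.5, 307 and 590.3 in SI males and 237, 274 and 331 in GH males. The highest SI female and the highest SI male were mice 41 and 38, and these also had the highest sum of 9 thalamus markers in their groups, 320.5 and 257 CPM. That sum was 121 to 320.5 in SI females, 106 to 221 in GH females, 96.1 to 257 in SI males and 101 to 143 in GH males, with none of the 9 markers at 0 in any library. Its part in the Lef1 difference was not tested. The Lef1 Log2FC was 0.16 in males without SI male 38 and 0.20 in females without SI female 41. Without SI males 25, 33 and 39 it was 0.40 in males. Tcf7l1, mostly a repressor of Wnt targets, had -0.25 with a standard error of 0.090 in females and 0.01 in males, or -0.04 without SI males 25, 33 and 39. Its counts in females were 253, 291 and 319 under SI and 266, 337 and 443 under GH.

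The core polarity genes other than Celsr1 took both signs. Celsr3, which guides axon tracts, had a Log2FC of 0.28 with a standard error of 0.081 in females, with counts of 1662, 2489 and 3167 under SI and 1884, 2067 and 2502 under GH. Of the 8 SI females, 4 lay above every GH female. In males it had -0.14 with a standard error of 0.116, with counts of 885, 1705 and 3015 under SI and 1809, 2358 and 3031 under GH, and 0.07 without SI males 25, 33 and 39. Celsr2 had -0.02 in females and 0.10 in males, and -0.04 in males without those mice. Prickle1 had 0.11 with a standard error of 0.037 in females and 0.10 in males, and 0.01 in males without those mice. Prickle2 had -0.09 in females and -0.27 with a standard error of 0.108 in males, and -0.06 in males without SI males 25, 33 and 39. Vangl1 and Vangl2, the membrane partners of Prickle, had -0.02 and -0.07 in females and 0.24 and 0.15 in males, and 0.20 and 0.07 in males without those mice. SI male 38 had the highest Vangl1 count of the males, 254, against 204 in the highest GH male. Without SI male 38 the male Log2FC of Vangl1 was 0.01.

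In males, 26 of the 45 genes had SI males 25, 33 and 39 below each of the other 12 males, against 25.9% of all genes tested in males, and 3 genes (Wnt4, Wnt5b and Ryk) had them above, against 24.1%. Of the 45 Log2FC in males, 35 kept their sign without these mice. Transcript length is given beside these values. Over the 45 genes Spearman's rho between Log2FC and transcript length was -0.28 in males and -0.22 in females, against -0.30 and -0.03 over all genes with a known length. These are descriptions across genes of the same libraries. Of the 12 members with transcripts of 6000 bases or more, among them Celsr1 and Apc, 11 were negative in females and 8 in males, against 22 of the 33 shorter members in either sex. Over all genes, 55.2% of those as long were negative in females and 75.7% in males. In females the lowest library was SI female 53 for 24 of the 45 genes and GH female 78 for 25, and these 2 had the lowest length slopes of their groups, -0.13 and -0.11. Less RNA per cell and fewer cells of a type cannot be told apart in bulk tissue.

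**Figure D4:**
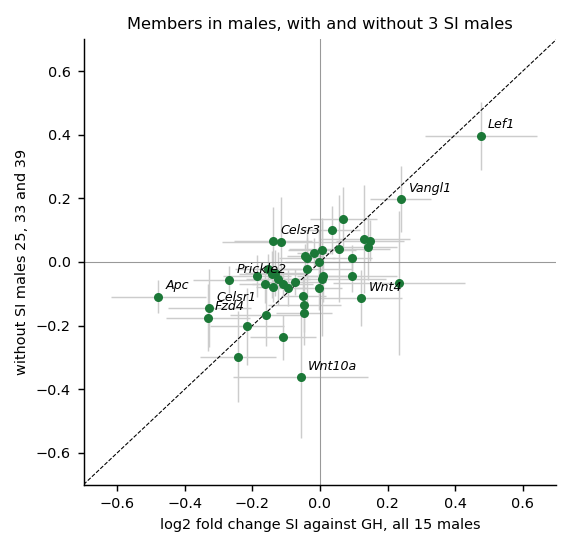
Log2 fold change of SI against GH in males for each of the 45 genes with all 15 males (horizontal axis) and without SI males 25, 33 and 39 (vertical axis), with standard errors in grey and a dashed line of equality. Values of 10 genes turn in sign. Apc moves from -0.48 to -0.11 and Celsr1 from -0.33 to -0.14, while Lef1 goes from 0.48 to 0.40.

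The comparison of females with males was not the contrast used to choose the genes and was tested in 1 fit of all 30 mice. It uses the same libraries as that contrast. The p-values of Celsr1 and Apc, the genes named in the choice, are therefore not independent of it. In GH mice, 4 of the 45 were higher in females (3.31% of all genes were) and 2 were lower (3.01% of all genes). Sfrp1 was higher in females by a Log2FC of 0.34 with a standard error of 0.090 (adjusted p = 0.0273), at 374, 446 and 672 in females and 205, 365 and 453 in males, and 3 of 7 females lay above every male. Celsr1 was higher by 0.28 with a standard error of 0.083 (adjusted p = 0.0419), with 4 of 7 GH females above every GH male. Lrp6 was higher by 0.18 with a standard error of 0.044 (adjusted p = 0.0221), at 1492, 2101 and 2809 in GH females and 1515, 1822 and 2089 in GH males. Ctnnb1 was higher by 0.11 with a standard error of 0.030 (adjusted p = 0.0326), with 4 of 7 females above every male. Prickle1 was lower in GH females by a Log2FC of -0.20 with a standard error of 0.049 (adjusted p = 0.0199), at 2739.5, 2855 and 3283 against 2994, 3409.9 and 3878, and 4 of 7 females lay below every male. Wnt10a was lower by -0.49 with a standard error of 0.134 (adjusted p = 0.0318), at 121, 163 and 228 against 154, 223 and 305. Apc did not pass, at 0.33 with an adjusted p of 0.0544. Without SI males 25, 33 and 39 in the fit, which then estimated its surrogate variables anew, none of these 6 passed, and their Log2FC ran from -0.33 to 0.27 with the sign of each unchanged. That fit called 150 genes in all, against 1035 with all mice.

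In SI mice, 3 of the 45 were higher in females (2.9% of all genes) and 2 were lower (3.38%). Sfrp1 was higher in SI females by a Log2FC of 0.53 with a standard error of 0.108 (adjusted p = 0.0225), at 397, 446 and 547 in SI females and 223, 277 and 394 in SI males. All 8 SI females lay above every SI male. The lowest Sfrp1 count of each group was in SI female 41, GH female 79, SI male 8 and GH male 3. These mice also had the lowest choroid plexus sum of their groups. The highest of both matched in SI female 63, GH female 71 and SI male 25, but not in GH males. Those sums were 2143 to 5655 CPM in SI females and 168 to 4758 CPM in SI males. They were 1304 to 7257 CPM in GH females and 169 to 2984 CPM in GH males. Their part in Sfrp1 was not tested. Fzd4 was higher by 0.42 with a standard error of 0.118 (adjusted p = 0.0402), and 7 of 8 females lay above every male. Apc was higher by 0.45 with a standard error of 0.123 (adjusted p = 0.0384), with 2 of 8 females above every male. Celsr2 was lower by a Log2FC of -0.41 with a standard error of 0.111 (adjusted p = 0.0373), although its mean normalized counts were 8545 in females and 8506 in males. Prickle1 was lower by -0.20 with a standard error of 0.057 (adjusted p = 0.0393), again with means close together, 3260.5 and 3233. Without surrogate variables in the fit the Log2FC of Celsr2 and of Prickle1 was 0.01. Without SI males 25, 33 and 39 none of the 5 passed (8 of all genes did, against 1030 with all mice), and the Log2FC was 0.34 for Sfrp1, 0.07 for Apc, 0.10 for Fzd4, -0.14 for Celsr2 and -0.05 for Prickle1.

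**Figure D5:**
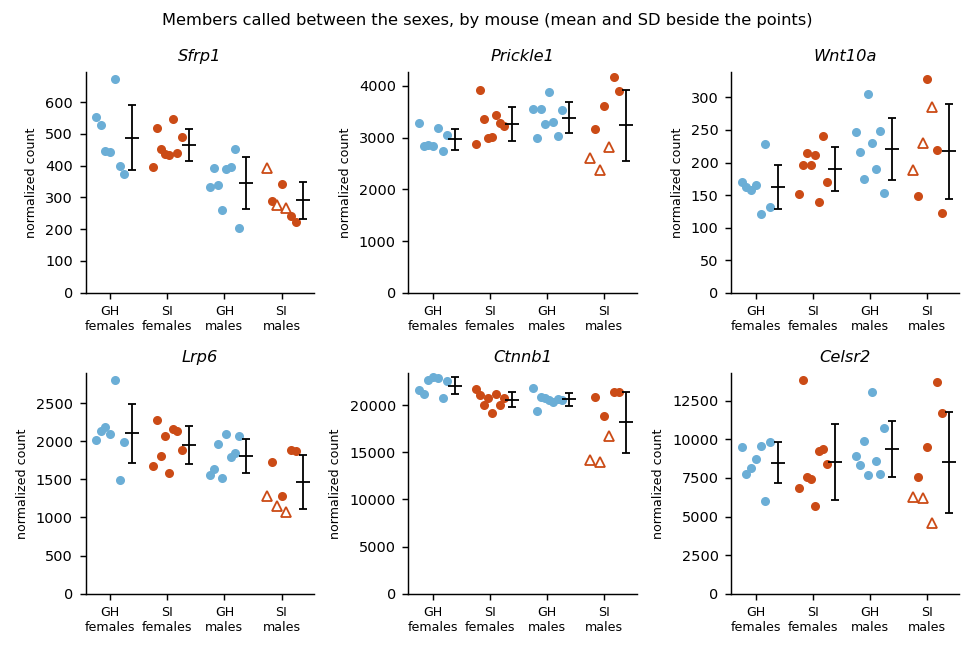
Normalized counts (linear axis from 0) of 6 genes that passed in a comparison of females with males, by mouse, with GH in blue, SI in orange, open triangles for SI males 25, 33 and 39, and the mean with its SD to the right of each group. All 8 SI females lie above every SI male for Sfrp1, and the SI groups have nearly equal means for Celsr2.

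Whether the housing difference itself differed between the sexes was tested by the interaction of sex and housing. That interaction is made from the SI against GH differences used to choose the genes. Its p-values are therefore not independent of the choice. No member passed, with edgeR, DESeq2 or limma-voom, and edgeR called 0.0% of all 16391 genes. At an unadjusted p below 0.05 there were 7 of the 45, against 7.48% of all genes. Celsr3 had the smallest p. Its female Log2FC exceeded the male by 0.34 with a standard error of 0.122 (adjusted p = 0.604). The Wnt4 difference was -0.29 with a standard error of 0.139 (adjusted p = 0.66).

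Pathway genes outside the 45 were taken from 8 lists of ligands, ligand secretion, receptors and R-spondins, secreted inhibitors, cytoplasmic regulators, nuclear factors, target genes and polarity genes. Of 104 listed genes, 97 were in the table and 96 were tested. The lists were made with earlier results of these data known. They are compared on the contrast and libraries used to choose the members. The p-values below, in both sexes, are therefore not independent of that choice, and nothing is read from the counts about the pathway. In females 3 passed and all 3 fell, beside 2.93% of all genes, and the median Log2FC of the 96 was -0.02. Lrp4, a receptor known from the neuromuscular junction that also binds Wnt antagonists, fell by 0.25 on the log2 scale with a standard error of 0.064 (adjusted p = 0.0413). Its counts were 2277, 2628 and 2879 in SI females and 2734, 3196 and 3736 in GH females, with 6 of 8 SI females below every GH female. Ctnnbip1, an inhibitor of the binding of beta-catenin to TCF factors, fell by 0.23 with a standard error of 0.047 (adjusted p = 0.0129), from 2316, 2500.1 and 3001 in GH females to 1861, 2186 and 2554 in SI females. Amer2, a membrane partner of Apc, fell by 0.17 with a standard error of 0.044 (adjusted p = 0.0425), and 4 of 8 SI females lay below every GH female. None rose with edgeR (0.961% of all genes did). At an unadjusted p below 0.05, 16 were lower (11.0% of all genes) and 5 higher (9.29%). DESeq2 called 9 of the 96 (7.87% of all genes), limma-voom 6 (5.23%) and edgeR without surrogate variables 0 (0.0%). The call of Ctnnbip1 held in 14 of 15 fits that each left out 1 female, and those of Lrp4 and Amer2 in 6 each.

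In males none of the 96 passed with edgeR, DESeq2 or limma-voom. At an unadjusted p below 0.05, 8 were lower (7.38% of all genes) and 8 higher (5.63%). The median Log2FC was -0.02. Without SI males 25, 33 and 39, 6 were lower (3.37% of all genes) and 9 higher (2.91%) at that threshold. Lrp4 had a Log2FC of -0.30 in males with an adjusted p of 0.33, and -0.06 without those mice. Tcf7l2, a partner of beta-catenin that is strongly expressed in the thalamus, was chosen after its values were seen. The male Log2FC of Tcf7l2 was 1.05 (standard error 0.293, adjusted p = 0.295) and 0.61 without SI males 25, 33 and 39 (adjusted p = 0.681), and the highest SI male was again mouse 38, at 1668 against a median of 442.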

How the data were processed

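RNA was extracted from frozen hippocampus, and each mouse gave 1 library. According to the submitters' processing notes and the methods of the study, the authors used Trimmomatic 0.39 for adapters and low-quality bases and Salmon 1.8.0 for quantification, with GRCm39 as the named build. They deposited 1 table of estimated counts per gene and mouse, written as whole numbers and not normalized, which were rounded here (0 columns had no sample). The transcript annotation used with Salmon is not given in the sources used here.

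The main tool was edgeR 4.0.16 in R 4.3.3. A gene entered a fit if filterByExpr passed it, at a minimum of 10 counts and a total of 15. Libraries were scaled with TMM and genes tested with glmQLFTest, with surrogate variables from svaseq (sva 3.50.0, 20 permutations, seed 1) as covariates, 3 in females, 2 in males and 4 in the fit of all 30 mice. Benjamini-Hochberg adjustment ran over all genes tested, at a threshold of 0.05. GH mice shared cages and SI mice were caged alone, but the cage and litter of each mouse are not given. The p-values therefore measure only the spread between these mice and take no account of shared cages. Normalized counts are counts scaled to the mean effective library size of 43538170. Marker sums are in CPM. Symbols were found for 16439 of the 17477 Ensembl IDs, and transcript length and GC content for 15964, from GENCODE vM1 on NCBIM37, which gave no coordinates here. The promoter windows and the motif match were read from RefSeq by gene symbol.

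The members, gene lists and alternatives were chosen with earlier results of these data known. All members are named by role, with counts for Celsr1 and Apc, for the member of each role with the largest Log2FC in each sex, and for members that passed between the sexes. Pathway genes outside the members are named where they passed. Alternatives were no surrogate variables, removal of each library's trend in length and GC content by lowess (span 0.3), DESeq2 1.42.0, its size factors in edgeR, no filter, limma-voom (limma 3.58.1) with quality weights, the position digit of the sample titles as a factor, all 4 groups in 1 fit, no SI males 25, 33 and 39, and each mouse left out in turn. Log2FC rests on 17 or more estimated counts per library for each member, and depth from 18809307 to 100844898 counts sets the counting error. The steps were also run on simulated data with known changes. Those data held no hidden variation between libraries such as the length trend, and their changes were larger than those of the members. That run therefore does not test the surrogate variables on the real libraries.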

Additional observations from a re-analysis of the deposited data

Results flagged for a closer look

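A mouse far from the rest of its group was found in 5 of 180 groups of values (45 genes in 4 groups), and chance marks about 1 in 20 groups. In each of the 5 it was the lowest mouse, by a gap that was a large share of the range of the group. Wnt7a was at 588 normalized counts in GH female 79, with the next GH female at 759. GH male 2 had 320.3 for Fzd8 and 608 for Vangl2, where the nearest GH males had 396 and 735. Ryk was at 1157 in GH male 22, with the next at 1354. Dkk3 was at 13407.5 in SI female 41, with the next SI female at 16303.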

How the results depend on the processing

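Numbers of members called depended on the correction and on single mice. For SI against GH in females, 3 were called, 0 without surrogate variables, 0 with the position digit, 6 with the length and GC trend removed and 6 with DESeq2. With all 4 groups in 1 fit it was 2, Celsr1 and Ctnnb1, so that Apc and Wnt4 were lost. Shares of all genes called were 3.89%, 0.0%, 0.0%, 9.48%, 7.87% and 3.11% in the order given. Both sets of 6 (trend removed and DESeq2) held Apc, Celsr1 and Wnt4, with Ctnnb1 lower and Celsr3 and Prickle1 higher. With 1 mouse left out it was 1 (SI females 45, 49, 63, 68 and 73, GH females 48 and 54) to 6 (GH female 78, where 8.86% of all genes were called). In males 0 were called under each of the 9 alternatives, and 0 to 6 with 1 mouse left out (6 without SI male 27, where 15.3% of all genes were called, and 1 without SI male 38). The interaction gave 0 under each alternative and 0 to 0 with 1 mouse left out. For females against males in GH mice, 6 were called, 0 without surrogate variables, 0 without SI males 25, 33 and 39, and 0 (GH males 3 and 22) to 9 (GH female 78) with 1 mouse left out. The shares of all genes were 6.31%, 0.0976%, 0.901% and, without GH female 78, 9.59%. In SI mice, 5 were called, 12 without surrogate variables, 0 with the trend removed, 0 with limma-voom, 0 without SI males 25, 33 and 39, and 0 to 14 (SI male 27) with 1 mouse left out. The shares of all genes were 6.28%, 26.1%, 0.0854%, 0.0549%, 0.0481% and, without SI male 27, 31.5%. There, without surrogate variables, Celsr2 (0.0062) and Prickle1 (0.012) turned their sign. Of the other pathway genes in females, 3 were called. It was 0 without surrogate variables, 0 with the position digit, 12 with the trend removed, 9 with DESeq2 and 6 with limma-voom. With all groups in 1 fit it was 5, and with 1 mouse left out 0 (SI female 68) to 11 (GH female 78). The shares of all genes, in that order, were 3.89%, 0.0%, 0.0%, 9.48%, 7.87%, 5.23%, 3.11%, 0.55% and 8.86%. In males the number of other pathway genes called was 0, and 0 to 17 with 1 mouse left out (17 without SI male 27, where 15.3% of all genes were called). The causes were not tested. Of 2115 values of SI against GH for single members under the alternatives, 151 turned their sign, in 33 of the 90 results, and 3 moved by more than 1 SD between mice. Of 476 values of genes called between the sexes or in the pathway lists, 187 lost the call and 2 turned. No paired analysis was possible because the animal numbers are unique and pair no mice. Genes of low depth, such as Ror2, have wide standard errors.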

Other observations

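Spread between mice is given as the coefficient of variation of normalized counts. The coefficient of variation had a median over the 45 genes of 25.3% in SI males, 12.3% in GH males, 12.7% in SI females and 14.6% in GH females. Of the highest values of SI males, 12 genes each had theirs in mice 7, 8 and 38, while SI males 25, 33 and 39 held 15, 11 and 8 of the lowest. In GH females mouse 71 held the highest value of 16 genes and mouse 46 that of 13.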
